A study of Caenorhabditis elegans with 2 samples.

Results

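Mitochondria carry their own ribosomes, the mitoribosomes, which translate the few messenger RNAs of the mitochondrial genome, most of them for subunits of the respiratory chain. Their proteins are encoded in the nucleus, made in the cytosol and imported, and are named MRPL for the large subunit, which holds the peptidyl transferase centre, and MRPS for the small subunit, which decodes the message. In Caenorhabditis elegans, lowered expression of mitoribosomal proteins such as MRPS-5 is known to extend lifespan and to induce the mitochondrial unfolded protein response. The genes described here are the 70 nuclear protein-coding genes whose Ensembl WBcel235 symbol is mrpl or mrps followed by a number, of 19973 on the nuclear chromosomes. They comprise 41 genes of the large subunit and 29 of the small subunit, and none of them lies on chromosome X. A gene was assigned every region whose summit lay between 1000 bp upstream of an annotated transcript start and the end of the gene.

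The data were chromatin immunoprecipitation followed by sequencing (ChIP-seq) of whole C. elegans of the fourth larval stage (L4), males and females pooled, of unstated age. The strain, OP337, is labelled unc119(ed3) with the insertion wgIs377, which joins fkh-10 to TY1, EGFP and FLAG tags and carries unc119. Forkhead proteins, to which FKH-10 belongs, bind DNA through a winged-helix domain. There was 1 group of 2 biological replicates, so conditions could not be compared, and whole animals mix all their cell types. The deposited lists held 2253 regions that passed the authors' irreproducible discovery rate threshold (IDR regions), 19381 relaxed regions of the pooled replicates, and 30000 and 28886 relaxed regions of replicates 1 and 2. Relaxed lists contain background by design. Each region has a signal, the authors' enrichment value, on a scale that the labels do not name. The depth of the libraries is unknown. No list held a region near fkh-10 itself, which had 0 summits within 20 kb in each of the 4 lists. By contrast, unc-119 had 1 IDR summit inside it. Within 20 kb of unc-119 there were 12 pooled relaxed summits, and 16 and 14 in the relaxed lists of replicates 1 and 2. The cause of the absence at fkh-10, in lists that also hold background, was not tested.

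Of the 70 mitoribosomal genes, 11 had an IDR region. They were mrpl-12, mrpl-15, mrpl-17, mrpl-28, mrpl-37, mrpl-45, mrpl-49 and mrpl-55 of the large subunit, and mrps-7, mrps-10 and mrps-17 of the small subunit. Each had a single IDR region. The genome sequence under these regions is shown for 9 of the 11, as the summit and 50 bases to each side on the plus strand of ce11 (WBcel235), read from the RefSeq assembly. Capitals mark GCAAAC or its reverse complement GTTTGC, a string that was picked out after these sequences had been read.
mrps-7, chrIV:14767872-14767972: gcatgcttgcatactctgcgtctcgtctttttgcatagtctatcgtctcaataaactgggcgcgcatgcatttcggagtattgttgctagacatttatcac
mrpl-28, chrII:156083-156183: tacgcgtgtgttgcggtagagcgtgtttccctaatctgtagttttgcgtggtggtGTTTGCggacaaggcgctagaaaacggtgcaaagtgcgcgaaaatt
mrpl-55, chrIV:443800-443900: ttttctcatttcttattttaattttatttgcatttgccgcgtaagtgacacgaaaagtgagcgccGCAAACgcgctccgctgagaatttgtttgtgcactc
mrpl-49, chrV:12728409-12728509: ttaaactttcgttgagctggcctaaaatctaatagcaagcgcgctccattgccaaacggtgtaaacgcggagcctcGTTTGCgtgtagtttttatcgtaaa
mrpl-37, chrII:13575718-13575818: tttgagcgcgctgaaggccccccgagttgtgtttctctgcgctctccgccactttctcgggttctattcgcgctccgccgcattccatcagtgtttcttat
mrps-10, chrIII:12926227-12926327: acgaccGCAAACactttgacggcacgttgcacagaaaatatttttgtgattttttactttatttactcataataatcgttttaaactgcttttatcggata
mrpl-12, chrIII:10707148-10707248: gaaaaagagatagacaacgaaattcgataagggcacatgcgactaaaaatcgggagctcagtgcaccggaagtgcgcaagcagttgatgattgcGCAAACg
mrps-17, chrIII:6431896-6431996: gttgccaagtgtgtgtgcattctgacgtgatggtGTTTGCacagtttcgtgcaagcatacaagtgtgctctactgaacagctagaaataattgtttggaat
mrpl-45, chrIII:1202319-1202419: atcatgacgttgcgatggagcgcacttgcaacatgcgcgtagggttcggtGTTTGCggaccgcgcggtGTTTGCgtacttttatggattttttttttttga

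How the share of mitoribosomal genes with an IDR region compared with other genes depended on the genes counted. Of the 42 members with a pooled relaxed summit in the window, 11 had an IDR region (26.2%, 95% Wilson interval 15.3 to 41.1), and the background over the 8942 other coding genes with such a summit was 19.0%. This interval, which covers counting error only, includes the background. Over all 70 members the share was 15.7% (interval 9.01 to 26.0), against 8.54% of all other coding genes, which lies below the interval. A pooled relaxed summit was present at 60.0% of the members (interval 48.3 to 70.7) and at 44.9% of other coding genes, which also lies below the interval. The members' windows were shorter, with a median of 2126 bp against 3030 bp. With only the window from 1000 bp upstream to 200 bp downstream of a start, 11 of 35 members had one (31.4%, interval 18.6 to 48.0), where the background was 22.2%. Large subunit genes had an IDR region in 8 of 25 with a pooled summit (32.0%, interval 17.2 to 51.6), and small subunit genes in 3 of 17 (17.6%, interval 6.19 to 41.03), so the intervals of the subunits overlap widely. Proteins numbered up to 36 in the large subunit and up to 21 in the small subunit mostly have bacterial counterparts, while most higher numbers are particular to mitochondria. This split, made after the values were seen, gave 7 of 23 (30.4%, interval 15.6 to 50.9) and 4 of 19 (21.1%, interval 8.51 to 43.3).

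**Figure D1:**
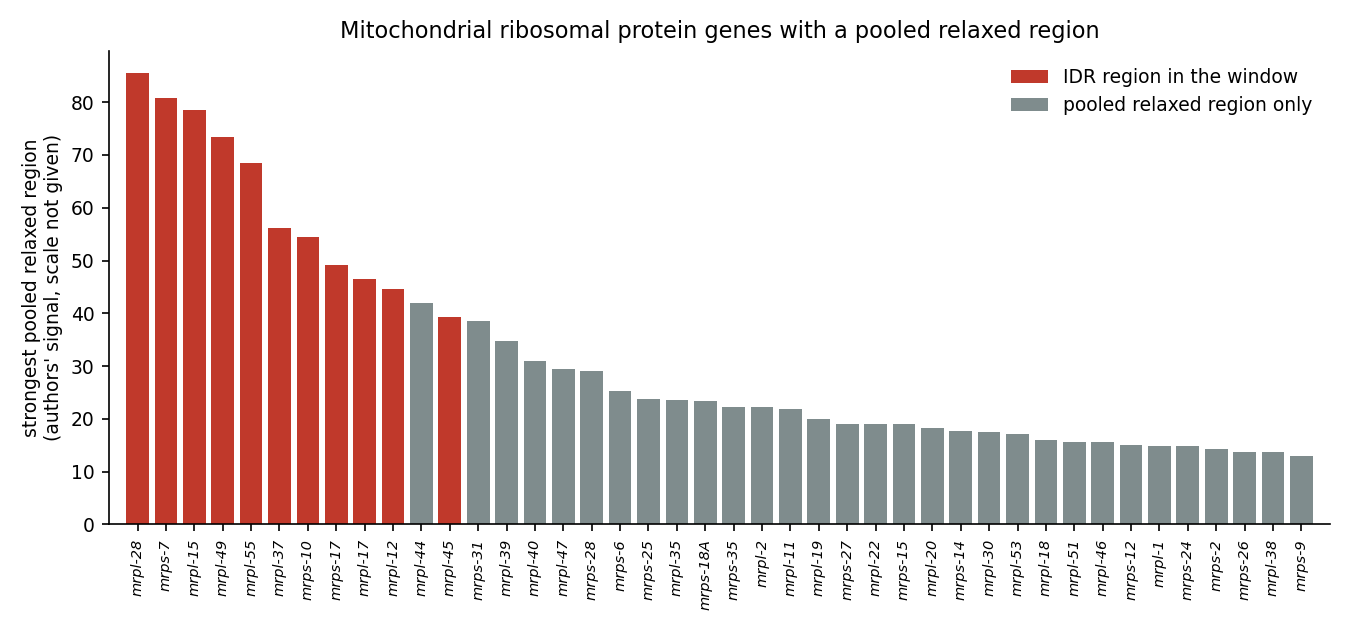
The bars give the authors' signal of the strongest pooled relaxed region in the window of each of the 42 mitoribosomal genes that had one, and red marks those with an IDR region. The signal runs from 85.5 at mrpl-28 to 12.9 at mrps-9, and mrpl-44 without an IDR region stands above mrpl-45, which had one.

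The strongest IDR region of the set belonged to mrpl-15 of the large subunit (WBGene00022373). It lay on chromosome I from 1435520 to 1435909, with the summit 564 bp upstream of the start, a signal of 90.9 and rank 315 of 2253. Its site had a signal of 38.5 in replicate 1 (rank 397 of 30000) and 37.6 in replicate 2 (rank 923 of 28886). This site was thus strong in both replicates, with the better rank in replicate 1. At mrpl-28, a large subunit protein with a bacterial counterpart (WBGene00020796, chromosome II, 155938 to 156327), the summit lay 124 bp upstream and the signal was 79.9, rank 505. Replicate 1 gave 29.2 (rank 900) and replicate 2 gave 54.4 (rank 283). The mrpl-28 site was the strongest of the set in the pooled list, at 85.5.

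The mrpl-55 region (WBGene00022045, chromosome IV, 443655 to 444044) had its summit 135 bp upstream and a signal of 69.0, rank 773. Its site had a signal of 38.9 in replicate 1 (rank 388) and 25.1 in replicate 2 (rank 2091). The opposite order was seen at mrpl-49 (WBGene00011247, chromosome V, 12728264 to 12728653, summit 172 bp upstream, signal 63.4, rank 969), whose signal was 16.3 in replicate 1 (rank 3077) and 55.4 in replicate 2 (rank 261). The replicates therefore placed the same site at widely different ranks in both genes. For mrpl-37 (WBGene00013004, chromosome II, 13575573 to 13575962), a protein particular to mitochondrial ribosomes, the summit was the farthest from the start, at 700 bp upstream. Its signal was 61.0, rank 1064, with 16.6 in replicate 1 (rank 2972) and 38.1 in replicate 2 (rank 887).

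A further 3 weaker large subunit regions completed the set of 8. The mrpl-17 region (WBGene00021829, chromosome I, 3162429 to 3162818, summit 189 bp upstream) had a signal of 53.5, rank 1436. Replicate 2 had a signal of 34.8 there (rank 1097), and the nearest summit of replicate 1 lay 118 bp away, beyond the 100 bp within which summits were taken as the same site; the signal there was 12.1. MRPL-12 forms the stalk of the large subunit, where translation factors bind, and the region of its gene (WBGene00012361, chromosome III, 10707003 to 10707392, summit 563 bp upstream) had a signal of 52.2, rank 1518. The mrpl-12 site had similar signals but a better rank in replicate 1, with a signal of 22.1 in replicate 1 (rank 1656) and 20.7 in replicate 2 (rank 2823). MRPL-45 is known in mammals to hold the ribosome to the inner membrane near the exit of the nascent chain. The region of its gene (WBGene00022493, chromosome III, 1202174 to 1202563, summit 361 bp upstream) was the weakest of the 11, with a signal of 46.2, rank 1854. Its site had 20.9 in replicate 1 (rank 1844) and 17.9 in replicate 2 (rank 3483).

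In the small subunit, mrps-7, whose bacterial counterpart helps to build the head of the small subunit, had the strongest region (WBGene00013324, chromosome IV, 14767727 to 14768116, summit 192 bp upstream), with a signal of 84.4, rank 416. Its site had a signal of 28.5 in replicate 1 (rank 955) and 51.8 in replicate 2 (rank 339). At mrps-10 (WBGene00012556, chromosome III, 12926082 to 12926471, summit 280 bp upstream) the signal was 59.6, rank 1114. The mrps-10 site was stronger in replicate 2, at 37.6 (rank 925), than in replicate 1, at 16.3 (rank 3096). At mrps-17 (WBGene00015487, chromosome III, 6431751 to 6432140, summit 148 bp upstream) the signal was 50.6, rank 1594. Replicate 1 had a signal of 19.2 there (rank 2167), while the nearest summit of replicate 2 lay 10756 bp away, so this IDR region had no counterpart in the relaxed list of replicate 2.

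**Figure D2:**
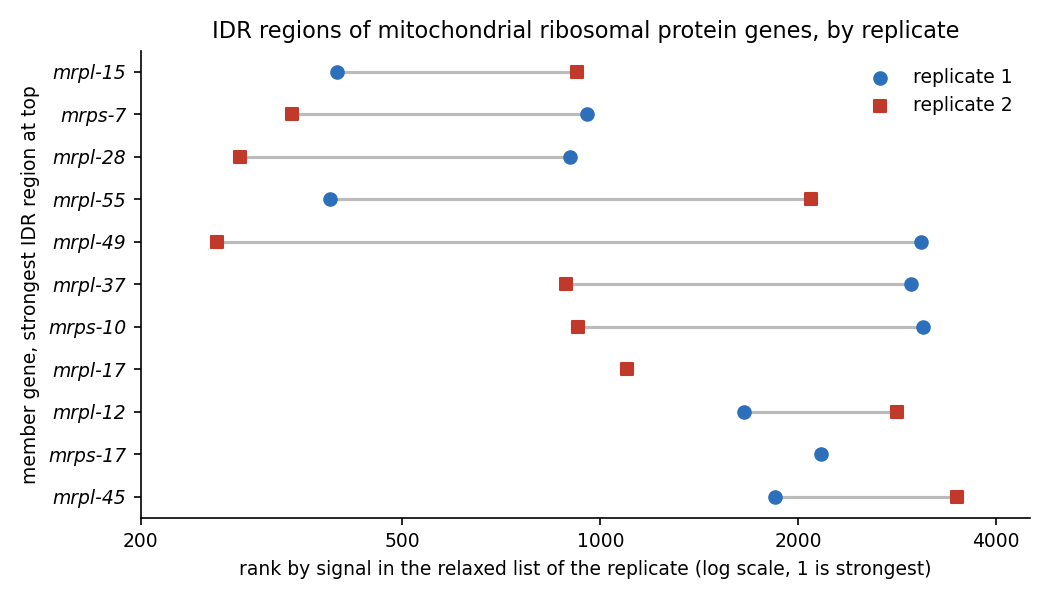
The points give the rank, by signal, of each of the 11 IDR regions of mitoribosomal genes in the relaxed list of replicate 1 (circles) and replicate 2 (squares), on a log scale on which 1 is the strongest region. Of the 9 regions matched in both lists, 4 ranked higher in replicate 1 and 5 in replicate 2; mrpl-17 and mrps-17 were matched in 1 list each.

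Neither replicate ranked these regions higher throughout. Of the 11, 7 were among the 2253 strongest regions of replicate 1, 8 among those of replicate 2 and 4 among both: mrpl-15, mrps-7, mrpl-28 and mrpl-55. The share with a summit within 100 bp was 10 of 11 in each replicate, and 92.6% and 95.8% of the 1578 IDR regions at other coding genes in replicates 1 and 2. The median signal of the 11 was 61.0, and that of the IDR regions at other coding genes 59.4, so the mitoribosomal regions lay in the middle of the list (median rank at 47.2% of the list against 49.8%). In all, 10 of the 11 were at the ceiling of the deposited −log10 q-value, 3.54, and mrpl-45 was below it, at 2.72.

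All 11 IDR summits lay upstream of the start of the member (interval 74.1 to 100), 124 to 700 bp away with a median of 192 bp. Among the 1970 pairs of an IDR region and another coding gene, 74.9% had the summit upstream of the start (interval 73.0 to 76.8) and 21.5% in the gene more than 200 bp past the start. For members the latter was 0 of 11, which allows up to 27.3% by the limit of 3 counts (Wilson interval 0 to 25.9). Both intervals of the members include the share of other genes. For members 6 of 11 summits were within 200 bp of the start (54.5%, interval 28.0 to 78.7), and for other genes 27.8%. The pooled relaxed regions at members spread further. Of 58 pairs of a region and a member 35 were upstream (60.3%, interval 47.5 to 71.9, against 46.4% for other genes) and 20 lay in the gene more than 200 bp past the start (34.5%, interval 23.6 to 47.3, against 48.0%). Other genes were longer, with a median of 2030 bp against 1126 bp, and the part of gene length in these shares was not tested.

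**Figure D3:**
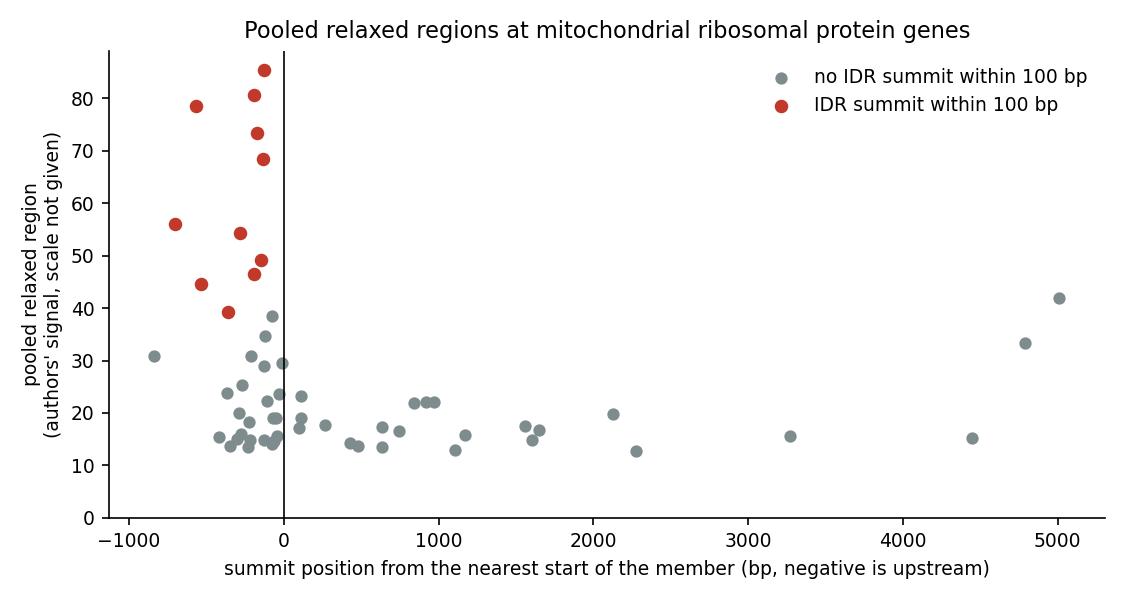
Each point is a pooled relaxed region at a mitoribosomal gene, with the position of its summit from the nearest start of the gene in bp (negative is upstream) on the horizontal axis and the authors' signal on the vertical axis. The regions with an IDR summit within 100 bp, in red, lie upstream of the start, and the strongest region without one is at the far end of mrpl-44, a gene of the large subunit.

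Most of the 11 regions were not the member's alone. In 8 of 11 (72.7%, interval 43.4 to 90.3) the summit also lay in the window of another coding gene, against 22.8% of the 1578 IDR regions at other coding genes (interval 20.8 to 24.9). Each of these neighbours is transcribed from the opposite strand, so the region lies between 2 divergent genes. The shares of 72.7% and 22.8% are not of like sets. The 22.8% also covers regions inside genes, whereas all 11 summits of members lay upstream. It counts each region once, while a region in the windows of 2 genes can be reached through either. The mrpl-49 summit lay 347 bp upstream of rpl-28, which encodes a protein of the cytosolic large subunit. The mrpl-37 summit lay 157 bp upstream of lin-38, a gene of vulval development, and the mrps-10 summit 280 bp upstream of npp-25, of the nuclear pore, the same distance as from mrps-10 itself. The mrpl-17 summit lay 233 bp upstream of vbh-1, a DEAD-box RNA helicase, and the mrps-17 summit 232 bp upstream of txdc-9, a thioredoxin-domain protein. The remaining partners were Y57G11C.3 for mrps-7 (279 bp), Y119D3B.12 for mrpl-45 (177 bp), and Y39A1A.21 and Y39A1A.22 for mrpl-12 (176 and 170 bp). The neighbour's start was the nearer one at mrpl-12, mrpl-37 and mrpl-45. Only mrpl-15, mrpl-28 and mrpl-55 had a region that no other coding gene's window held, and which gene of a pair a region belongs to cannot be told apart from these lists.

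Divergent neighbours were common among the members as a whole. A coding start on the opposite strand within 1000 bp upstream was present at 28 of 70 (40.0%) and at 18.7% of other coding genes. Members with such a neighbour had an IDR region in 8 of 28 (28.6%, interval 15.3 to 47.1), where the background over other genes with one was 16.0%. Those without had it in 3 of 42 (7.14%, interval 2.46 to 19.01), where the background was 6.81%. When only regions in the window of a single coding gene were counted, a setting added after the data were seen, 3 members were left. This was 7.14% of the 42 with a pooled summit (interval 2.46 to 19.01), below the 11.1% of other genes, which the interval includes.

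Members directly behind another gene on the same strand had no IDR region of their own. In C. elegans many genes are transcribed in operons from a promoter ahead of the first gene, and downstream genes are separated by trans-splicing. The annotation used here lists no operons, so spacing was used: 27 of the 70 members (38.6%) began within 500 bp of the end of a coding gene on the same strand, against 18.0% of other coding genes. Of these 27, 0 had an IDR region in their own window, which allows a share of up to 11.1% by the limit of 3 counts (Wilson interval 0 to 12.5), and the background over other genes so placed was 4.63%. Of the other 43 members, 11 had one (25.6%, interval 14.9 to 40.2), where the background was 9.40%. Pooled relaxed summits followed the same order, at 9 of 27 (33.3%, interval 18.6 to 52.2; background 40.6%) and 33 of 43 (76.7%, interval 62.3 to 86.8; background 45.9%). Members were below other genes in the first class and above them in the other. In the first class both intervals include the background, and in the other both backgrounds lie below the interval. Neither difference was tested.

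For 11 of the 27, an IDR region lay instead at the first gene of the run of closely spaced genes (40.7%, interval 24.5 to 59.3), within 1000 bp upstream to 200 bp downstream of its start. The background over other genes in such runs was 12.3%, which does not count those with an IDR region in their own window. With an IDR region at either place counted, it was 16.9%, and the share of members stayed at 40.7%. This count was made after the data were seen. The strongest lay upstream of clsp-1, a claspin gene, ahead of mrpl-54 (signal 130.7, rank 64), and of num-1, a Numb gene, ahead of mrps-12, whose protein acts in decoding (signal 108.4, rank 127). The region ahead of rpn-3, a proteasome subunit gene, and mrpl-32 had a signal of 93.6 (rank 261). F29B9.11 and mrps-21 followed with 87.0 (rank 378). A region 79 bp upstream of natc-1, a subunit of an N-terminal acetyltransferase, had a signal of 77.8 (rank 552) and stood ahead of both mrps-2 and mrpl-4, which are adjacent. The region at atp-2, the beta subunit of the mitochondrial ATP synthase, ahead of mrps-26, had 68.7 (rank 787). The others were at nrde-2 (mrps-14, signal 58.4), eif-3.E (mrps-30, 52.4), fars-1 (mrpl-23, 46.3) and W04D2.4 (mrps-11, 41.7). These summits lay 79 to 968 bp upstream of the start of the first gene, the farthest at nrde-2 (968 bp), fars-1 (936 bp) and num-1 (794 bp). From the start of the member they lay 1045 to 9063 bp away. Whether the regions mark the promoter of the first gene, and whether a member is transcribed from it, was not tested.

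**Figure D4:**
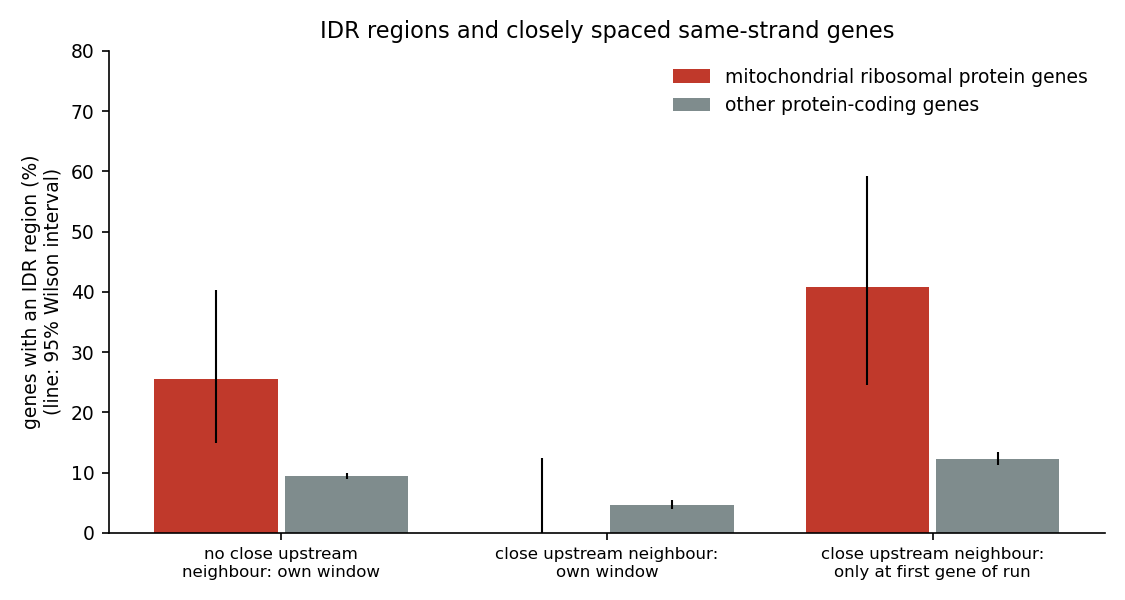
The bars give the percentage of mitoribosomal genes (red) and other protein-coding genes (grey) with an IDR region, and the lines the 95% Wilson interval. Members without a close upstream neighbour on the same strand stand at 25.6% and those with one at 0 in their own window, while 40.7% of the latter have an IDR region only at the first gene of their run.

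Another 31 members had a pooled relaxed region but no IDR region. Their strongest regions had signals from 12.9 to 41.9, with a median of 19.1, and 18 lay upstream of the start. The strongest was at mrpl-44, whose protein is related to RNase III (signal 41.9, rank 2096 of 19381), with its summit 5011 bp past the start, close to the end of the gene. The coding start nearest to that summit is that of far-2, not of mrpl-44. The mrps-31 region, 74 bp upstream, had 38.6 (rank 2410), and the region at this site had a signal of 14.2 in replicate 1 and 26.2 in replicate 2. The region 118 bp upstream of mrpl-39 followed with 34.7 (rank 2813), and lies between mrpl-39 and gly-7. The pooled signal of the mrpl-45 region, 39.3, was below that of mrpl-44, so the IDR list did not follow the pooled signal alone. At the low end were mrps-26 (13.8), mrpl-38 (13.7) and mrps-9 (12.9). The divergent members mrpl-1 and mrps-24 shared, also with emc-6, 1 pooled region (signal 14.8, rank 13917), 219 bp upstream of mrpl-1 and 125 bp upstream of mrps-24.

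The remaining 28 members had no pooled region, and 18 of them began behind a close same-strand neighbour. In 21 of the 28 only the replicate lists had a region, with signals no higher than 10.97 in replicate 1, at mrps-23, and 9.74 in replicate 2, at mrpl-9. Both replicate lists had one at mrpl-9, mrpl-36, mrps-11, mrps-21 and mrps-23, and a single list had one at the others. These 21 were mrpl-4, mrpl-9, mrpl-10, mrpl-13, mrpl-16, mrpl-21, mrpl-23, mrpl-32, mrpl-34, mrpl-36, mrpl-41, mrpl-42, mrps-11, mrps-16, mrps-18.C, mrps-21, mrps-22, mrps-23, mrps-30, mrps-33 and mrps-34. The 7 members without a region in any list were mrps-5, mrps-18B, mrps-18C, mrpl-24, mrpl-48, mrpl-50 and mrpl-54. Among them is the lifespan gene mrps-5, which starts behind sel-1. Over all 70 members 51 had a relaxed region in replicate 1 and 51 in replicate 2, with a background of 61.6% and 55.0% of other coding genes, and 40 had one in both, where the background was 41.9%. Summits of both replicates within 100 bp of each other were present at 21 members (30%, interval 20.5 to 41.5), where the background was 20.3%.

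Cytosolic ribosomal protein genes had IDR regions more often than mitoribosomal genes did. With the same window, 59 of 76 cytosolic ribosomal protein genes with a pooled summit had an IDR region (77.6%, interval 67.1 to 85.5), and this interval does not overlap that of the mitoribosomal genes (26.2%, interval 15.3 to 41.1). No test was made of this difference, since the lists were chosen with results known. The other lists of mitochondrial gene expression were small. Mitochondrial aminoacyl-tRNA synthetases, which charge the mitochondrial transfer RNAs, had an IDR region in 1 of 7 (ears-2, signal 56.2), and translation and assembly factors in 1 of 7 (gfm-1, an elongation factor G, signal 41.97). Genes of mitochondrial DNA maintenance and transcription had 0 of 5, which allows a share of up to 60.0% by the limit of 3 counts (Wilson interval 0 to 43.4). Cytosolic and mitochondrial aminoacyl-tRNA synthetases together had 5 of 22 (22.7%, interval 10.1 to 43.4). Mitochondrial import had 4 of 9 (44.4%, interval 18.9 to 73.3): ddp-1 and tin-9.2 of the small intermembrane chaperones (119.8 and 52.5), tomm-20, a receptor of the outer membrane (93.4), and timm-23, the channel of the inner membrane (64.2). Respiratory chain and ATP synthase genes, which include those of the complexes that hold products of the mitoribosome, had 22 of 54 (40.7%, interval 28.7 to 54.0). This interval overlaps that of the mitoribosomal genes. The strongest of these were cox-5B (171.2), cox-5A (157.9), atp-1 (155.2) and cox-6B (133.0).

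**Figure D5:**
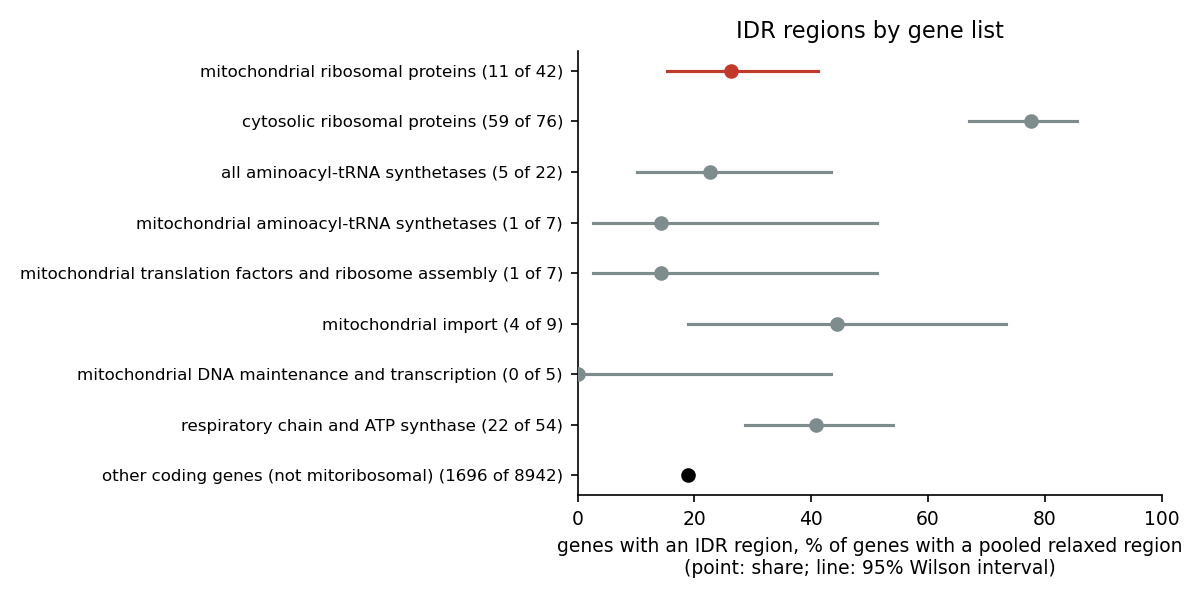
The points give the share of genes with an IDR region among those with a pooled relaxed region in the window, for each gene list, and the lines the 95% Wilson interval. Mitoribosomal genes stand at 26.2%, with an interval that includes the 19.0% of other coding genes, and cytosolic ribosomal protein genes at 77.6%.

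The motifs planned before the sequences were read were sought within 100 bp of the summit, on either strand. Each of them was found in at most 2 of the 11 regions. The strings picked after the sequences were read, such as GCAAAC, were more frequent and are described under the other observations. The forkhead consensus was counted only as the word ATAAACA, the word ATAAATA, the word GTAAACA or the word GTAAATA. The word GCAAACA, described under the other observations, differs from GTAAACA in a single base but was not counted as one of them. The counts given here therefore do not cover every forkhead-like word. The counted forms were found in 2 of 11, at mrpl-28 and mrps-10, and in 14.7% of the IDR regions at other coding genes. They were in 18.97% of the pooled relaxed regions without an IDR summit within 100 bp. GTAAACA, which is among these forms, was in 0 of 11, which allows a share of up to 27.3% by the limit of 3 counts (Wilson interval 0 to 25.9). GAGAGAG was in 1 (mrpl-15), GCGTCTC in 2 (mrps-7 and mrpl-37), TGATAA in 2 (mrps-7 and mrpl-45), TAATTA and TTTCAG in 1 (both mrps-17), and CCCGCCC and TTTCCCGC in 0. At IDR regions of other genes these were at 17.6% (GAGAGAG), 14.0% (GCGTCTC), 7.67% (TGATAA), 3.99% (TAATTA), 17.1% (TTTCAG), 2.85% (CCCGCCC) and 1.84% (TTTCCCGC). With 11 regions each match is 9.09%, and the Wilson interval of each of these shares included the share at other genes. The GC content within 100 bp was 39.2% ± 5.72 (SD, 11 regions) at members and 42.8% ± 7.19 (SD, 1578 regions) at other coding genes. The SD is the spread of single regions, and the difference of the means was not tested. Within 50 bp the order turned, at 45.5% ± 6.59 at members and 44.9% ± 8.75 at other coding genes. In this narrower window the counted forms of the forkhead consensus were at 1 of the 11 summits, and TAATTA and TTTCAG were at 0.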

How the data were processed

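ChIP-seq regions were taken as deposited. Per the labels, the 2 samples are biological replicates of 1 group, with a fragment size of 150 to 350 bp. The 4 lists on ce11 were used: IDR regions, pooled relaxed regions and the relaxed regions of each replicate. In the deposited lists the authors give each region a signal and a −log10 q-value. Aligner, peak caller and thresholds: not given in the sources used. No reads were analysed here, and the lists on ce10 were not used.

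Every region ended inside its chromosome in WBcel235, the sequence of ce11. Genes came from Ensembl release 115, without the 12 genes of the mitochondrial genome. A summit was the region start plus the deposited offset. Positions count from 1. Regions were ranked by signal within a list, and sites were matched where summits lay within 100 bp. Shares carry 95% Wilson intervals for counting error only, and a share of 0 also the limit set by 3 counts. No test was run, because there is 1 group and the members and lists were chosen with earlier results of these data known. The 7 other gene lists were defined by symbol, and 5 symbols of the translation factor list are not annotated. All members with an IDR region are named, as are the 3 strongest and 3 weakest of those with a pooled region only, those without any region, and up to 4 genes per other list. Additional genes were named after their values were seen. The replicate lists shared 0 regions of the same position and signal. Assignment was tested on simulated data, and all 200 planted summits were recovered among 19973 genes. Python 3.11.15, pandas 2.3.3 and scipy 1.17.1 were used.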

Additional observations from a re-analysis of the deposited data

How the results depend on the processing

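The count of 11 members with an IDR region was between 8 and 13 with windows from 500 or 2000 bp upstream, a promoter window of 1000 bp upstream to 200 bp downstream, the nearest start only or any overlap. It was 7 when the weaker 50% of the IDR list was left out, 3 with regions in the window of a single coding gene (a share of 7.14%) and 22 with the first gene of a closely spaced run added; the last 2 settings were added after the data were seen. Without replicate 1, using the 2253 strongest regions of replicate 2, 9 members had a region, and without replicate 2 also 9, or 21.4% each against 18.8% and 17.9% of other genes. In each planned setting the share of members was above that of other genes, and in the single-gene setting it was below (11.1% of other genes). The settings recount many of the same genes, so they are not independent of each other. The closest was the window from 500 bp upstream, with 20.5% against 18.3%. In the main setting and in the single-gene setting the interval of the members included the share of other genes. The 40 members with a region in both replicates became 18 with the 10000 strongest regions of each (25.7%, others 16.9%) and 21 with summits within 100 bp of each other (30%, others 20.3%). Motif counts within 50 bp of the summit took TAATTA and TTTCAG from 1 region each to 0. The median rank of the IDR regions was at 41.2% of the list without replicate 1 and at 67.2% without replicate 2, on either side of the middle of the list. The cause of these moves was not tested. No paired analysis was possible because there is only 1 group. Depth limits every count, since it is unknown for both libraries.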

Other observations

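The string GCAAAC, chosen after the printed sequences were read, occurred within 100 bp of 8 of the 11 IDR summits of mitoribosomal genes on either strand: those of mrpl-12, mrpl-15, mrpl-28, mrpl-45, mrpl-49, mrpl-55, mrps-10 and mrps-17. It was not found there at mrps-7, mrpl-37 and mrpl-17. At the IDR regions of other coding genes, which played no part in the choice, it occurred in 11.98% (189 of 1578, interval 10.5 to 13.7). Among those from 1000 bp upstream to 200 bp downstream of a start the share was 14.8%. Windows of the same length centred 400 bp to each side of the summits at other coding genes held it in 8.81%. Beside the mitoribosomal summits it was in 2 of 22 such windows. Of the 46 pooled relaxed regions at members without an IDR summit within 100 bp, 2 held it.

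Within 200 bp upstream of the start the string occurred at 7 of the 59 members without an IDR region (11.9%, interval 5.87 to 22.5), and at 10.9% of all coding genes. Among IDR regions, it was in 6 of 56 at cytosolic ribosomal protein genes (10.7%) and in 5 of 24 at respiratory chain and ATP synthase genes (20.8%, interval 9.24 to 40.5). The longer form GCAAACA was at 4 of the 11 summits (mrpl-28, mrpl-45, mrps-10 and mrps-17). GCAAACA differs in a single base from GTAAACA, but was not among the words counted above as the forkhead consensus. Whether FKH-10 binds it was not tested. It was at 6.40% of IDR regions of other coding genes and at 3.57% of pooled relaxed regions without an IDR summit. Among IDR regions of other coding genes from 1000 bp upstream to 200 bp downstream of a start it was at 8.52%. Since the string was picked from 9 of these 11 sequences, its share there is a description only. The second string picked in the same way, GCGCTC, was at 4 of 11 (mrpl-37, mrpl-45, mrpl-49 and mrpl-55). It was at 15.1% of IDR regions of other coding genes, and at 19.1% of those from 1000 bp upstream to 200 bp downstream of a start. Of the pooled relaxed regions without an IDR summit, 4.34% held it, and of those at members 5 of 46. The windows centred 400 bp to each side held it in 4 of 22 at members and in 3.14% at other coding genes. It was also in 11 of 56 IDR regions of cytosolic ribosomal protein genes.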
